A study of Mus musculus with 20 samples.

Results

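The regions described here are stretches of the mouse genome that carried a 5-formylcytosine (5fC) peak in both *Tdg* null hearts and in no other *Tdg* null tissue. They were selected on the null libraries alone. Each is an autosomal run of 100 bp bins under a peak of both heart null libraries, is at least 300 bp long, and shares no base with a peak of the 4 hindbrain, 2 carcass and 1 liver null libraries. In all, 32200 regions covering 19.8 Mb met the rule. They make up 28.9% of the 111493 stretches of that length under both heart null libraries, and the 20 libraries together marked 412470 separate autosomal stretches. The series profiled 5fC by chemical pull-down in 4 dissected parts of mouse embryos at E11.5, the heart, liver, hindbrain and remaining carcass, from wild type (WT) embryos and from those null for *Tdg*, in which the sequence encoding the catalytic domain is replaced by a neomycin cassette. Heart, liver and carcass were dissected from the same embryos (null i1 and i5, WT i6 and i9) and are therefore linked by embryo. The 4 null and 4 WT hindbrains came from 8 other embryos, whose title codes were read as litters A, O, Q and Z. Per the paper, WT and null samples of each tissue were paired by litter. The null allele is constitutive, so every cell of a null embryo lacks the enzyme. Null liver i5, which was set aside for poor quality, had no part in the rule.

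5fC is made when TET enzymes oxidise 5-methylcytosine through 5-hydroxymethylcytosine, mostly at CpG dinucleotides. The glycosylase TDG excises 5fC so that base excision repair can restore an unmodified cytosine, and 5fC therefore builds up where TET acts once TDG is missing. In embryonic stem cells the mark is known from enhancers. A dissected heart holds cardiomyocytes, endocardium, epicardium, cushion mesenchyme and blood, and peaks do not tell a mark in a few cells from a weaker mark in many.

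To show what such regions look like, 9 of them are printed as the central 300 bp of the plus strand of NCBIM37 (mm9). The first 4 come from the gene with the most members on each of 4 lists of cardiac genes, and are its longest member whose central window holds no exon. The next 3 lay under a peak of both WT hearts and of no other WT library and were picked because they hold the GATA factor word described next, which only 4 of 18 such regions (22.2%) do, and the last 2 lay under a peak of both WT livers and of no other WT library and were picked for holding it most often. Capitals mark each CG dinucleotide and each copy of the GATA factor word AGATAA or its complement TTATCT in the printed strand.
Gata4 intron, chr14:63824101-63824400: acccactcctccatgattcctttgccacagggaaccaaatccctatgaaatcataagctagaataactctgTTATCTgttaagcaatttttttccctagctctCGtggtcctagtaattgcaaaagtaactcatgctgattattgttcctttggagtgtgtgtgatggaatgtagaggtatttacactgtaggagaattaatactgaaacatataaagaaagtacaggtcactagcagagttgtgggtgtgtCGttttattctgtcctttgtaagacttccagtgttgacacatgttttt
Ttn intron, chr2:76639351-76639650: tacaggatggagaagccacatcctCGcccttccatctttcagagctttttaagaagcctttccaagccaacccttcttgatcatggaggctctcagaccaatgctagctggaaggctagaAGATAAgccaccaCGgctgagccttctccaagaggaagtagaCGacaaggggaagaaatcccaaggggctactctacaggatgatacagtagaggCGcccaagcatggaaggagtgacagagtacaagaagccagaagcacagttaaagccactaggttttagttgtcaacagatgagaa
Cacna1c intron, chr6:118763251-118763550: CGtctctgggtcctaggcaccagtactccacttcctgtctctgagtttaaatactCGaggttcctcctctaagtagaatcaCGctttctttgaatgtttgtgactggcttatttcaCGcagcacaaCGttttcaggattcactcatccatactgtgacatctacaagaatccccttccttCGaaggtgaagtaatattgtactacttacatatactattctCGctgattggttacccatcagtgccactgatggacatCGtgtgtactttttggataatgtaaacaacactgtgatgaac
Erbb4 intron, chr1:69130401-69130700: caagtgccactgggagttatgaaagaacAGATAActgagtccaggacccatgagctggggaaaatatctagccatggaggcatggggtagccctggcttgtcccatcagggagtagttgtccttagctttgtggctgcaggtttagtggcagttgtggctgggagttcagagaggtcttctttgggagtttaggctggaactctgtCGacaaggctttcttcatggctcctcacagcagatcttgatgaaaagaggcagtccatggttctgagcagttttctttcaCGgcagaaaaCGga
Intergenic, both WT hearts, chr2:70988051-70988350: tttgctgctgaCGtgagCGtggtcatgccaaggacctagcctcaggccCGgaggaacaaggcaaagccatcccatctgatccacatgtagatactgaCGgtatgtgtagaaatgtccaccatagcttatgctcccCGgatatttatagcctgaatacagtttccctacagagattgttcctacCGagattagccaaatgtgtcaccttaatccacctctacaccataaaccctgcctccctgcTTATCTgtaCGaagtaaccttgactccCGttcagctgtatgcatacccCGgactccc
Intergenic, both WT hearts, chr7:75088651-75088950: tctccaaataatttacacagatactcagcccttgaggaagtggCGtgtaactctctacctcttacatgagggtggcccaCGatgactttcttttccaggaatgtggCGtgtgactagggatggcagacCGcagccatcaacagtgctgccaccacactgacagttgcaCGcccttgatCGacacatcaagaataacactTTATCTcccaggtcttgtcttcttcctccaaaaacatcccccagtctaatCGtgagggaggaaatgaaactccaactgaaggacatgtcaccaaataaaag
Slc26a3 intron, both WT hearts, chr12:32116101-32116400: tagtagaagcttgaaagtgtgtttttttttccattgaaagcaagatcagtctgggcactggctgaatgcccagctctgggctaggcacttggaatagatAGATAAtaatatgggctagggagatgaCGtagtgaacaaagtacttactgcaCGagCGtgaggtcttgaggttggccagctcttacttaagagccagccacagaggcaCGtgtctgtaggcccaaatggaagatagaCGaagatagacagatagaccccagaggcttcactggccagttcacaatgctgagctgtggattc
Intergenic, both WT livers, chr15:5081301-5081600: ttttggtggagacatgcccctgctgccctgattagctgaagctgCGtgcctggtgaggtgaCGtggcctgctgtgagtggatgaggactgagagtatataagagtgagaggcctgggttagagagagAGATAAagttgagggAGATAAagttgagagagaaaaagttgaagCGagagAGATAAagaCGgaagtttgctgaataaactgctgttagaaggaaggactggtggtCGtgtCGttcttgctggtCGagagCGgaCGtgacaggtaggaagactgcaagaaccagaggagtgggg
Intergenic, both WT livers, chr1:43373101-43373400: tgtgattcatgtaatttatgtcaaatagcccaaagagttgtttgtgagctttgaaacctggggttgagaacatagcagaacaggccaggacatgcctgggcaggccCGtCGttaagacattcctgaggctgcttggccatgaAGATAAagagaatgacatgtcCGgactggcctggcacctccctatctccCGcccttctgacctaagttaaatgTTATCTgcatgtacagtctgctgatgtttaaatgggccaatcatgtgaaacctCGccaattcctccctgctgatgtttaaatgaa
The stretch in *Gata4*, which encodes a zinc finger factor required for heart formation, held 2 CG dinucleotides and 1 GATA word. That in *Ttn*, the gene for the giant sarcomere protein titin, held 4 and 1. The stretch in *Cacna1c*, which encodes the pore of the cardiac L-type calcium channel, held 8 CG dinucleotides and no GATA word, and that in *Erbb4*, a neuregulin receptor of the myocardium, held 3 and 1. Of these 4 regions, the one in *Ttn* lay under a WT heart i6 peak and the others under no WT peak. The 3 regions under both WT hearts lay 32.2 kb from the start of *Cybrd1*, 8.91 kb from that of *Igf1r* and in an intron of *Slc26a3*, with 9, 7 and 5 CG dinucleotides. The 2 regions under both WT livers held 3 and 2 GATA words and were intergenic, 10.3 kb from the start of *Gm10250* and 127 kb from that of *Gm8210*.

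Members were short and mostly set by the sparser of the heart null libraries. Their median length was 600 bp (quartiles 500 and 700 bp, longest 3400 bp), against 700 bp for the 79293 heart null stretches that touched another null tissue. Only 2771 members (8.61%) reached 1000 bp. In 29538 members (91.7%) the region was a whole peak of null heart i5, and in 6572 (20.4%) a whole peak of null heart i1. At the length threshold, 1640 stretches measured exactly 300 bp and were kept, while 1134 of 200 bp and 39 of 100 bp were left out. Many members were close neighbours of peaks found elsewhere. The nearest null peak of another tissue was at most 1000 bp away for 14355 members (44.6%) and adjoined 989 of them (3.07%), and the median distance was 1300 bp.

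Of the 111493 heart null stretches, 25258 (22.7%) touched peaks of hindbrain, carcass and liver null libraries alike. Null liver alone was touched by 10971 (9.84%), null carcass alone by 9467 (8.49%) and null hindbrain alone by 5098 (4.57%). The share that was restricted to heart varied little between chromosomes, from 26.7% on chromosome 8 to 30.2% on chromosome 19. Density ranged from 11.5 members per Mb on chromosome 7 to 17.5 on chromosome 19, with 13.5 over all autosomes.

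Libraries differed widely in their number of peaks, and the read depth behind them was not examined, because the peak files used here hold positions only. Null heart i1 had 251271 autosomal peaks, more than any other library, and null heart i5 had 125399. The other null libraries in the rule had 100553 to 217565 and the WT libraries 1507 to 41464, of which WT heart i6 had 5881, WT heart i9 5418, WT liver i6 16368 and WT liver i9 1740. Compared here were the null hearts and the null libraries used in the rule, which leaves out null liver i5. Whether overlap with WT libraries followed the tissue labels varied with the measure. The log2 ratio of observed to expected bases has a lower ceiling over a null library that covers more of the genome. Null heart i1 covered 8.59% and null carcass i5 8.01% of the ungapped autosomes, against 2.84 to 3.89% for the null hindbrains. Part of the order of the ratios below is set by this. Every WT hindbrain lay higher over the null hindbrains, at log2 ratios of 4.01 to 4.83, than over these null libraries of other tissues, at 2.14 to 3.70. By share of bases this held for WT hindbrains 2A8 and Z3 but not for O3 and Q3. Q3 had 77.0% under null carcass i5, against 66.0% and 73.6% under null hindbrains 2A2 and O4. O3 had 79.3% under null carcass i5, against 74.7% under null hindbrain 2A2. Both WT carcasses, by contrast, had higher log2 ratios over the null hindbrains, at 3.72 to 4.09, than over the null carcasses, at 3.28 to 3.57. By share of their bases the order turned, with 60.5 to 81.2% under the null carcasses and 46.1 to 59.7% under the null hindbrains. The null carcasses cover more of the genome than the null hindbrains, which raises a share and lowers the ceiling of a ratio. Of the bases under WT liver i6 peaks, 69.9% lay under null heart i1 peaks and 46.0% under null heart i5 peaks, but 34.5% under null liver i1 peaks. For WT liver i9 these shares were 66.6%, 46.8% and 43.2%. Relative to the extent of each null library, WT liver i6 overlapped null heart i5 at a log2 ratio of 3.57 and null liver i1 at 3.42, whereas for WT liver i9 the order was 3.59 and 3.74. WT heart i6 had 37.6% of its bases under null heart i1, 31.0% under null heart i5 and 23.3% under null liver i1, and WT heart i9 78.3%, 36.3% and 58.1%. As log2 ratios WT heart i9 lay higher over null liver i1, at 4.17, and over the 4 null hindbrains, at 3.64 to 3.96, than over the null hearts, at 3.19 and 3.23. By share of its bases the null hindbrains held 44.2 to 56.8%, below null heart i1 and above null heart i5. Among the same libraries WT heart i6 had its highest log2 ratio over null heart i5, at 3.002, with 2.85 over null liver i1. The labels were used as given, and what gave these overlaps was not tested.

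The WT libraries played no part in choosing the members, so they can be asked whether regions restricted to null heart also carry 5fC in heart when TDG is present. WT hearts did overlap the members more than expected, but WT livers overlapped them more strongly still. For each WT library the bases of its peaks inside members were divided by the bases expected from its coverage of each chromosome. WT heart i6 overlapped 331 members (1.03%, 95% exact binomial interval 0.921 to 1.14%) at a log2 ratio of 2.57, and WT heart i9 141 members (0.438%, 0.369 to 0.516%) at 1.37. WT liver i6 overlapped 1221 members (3.79%, 3.59 to 4.01%) at 3.15, and WT liver i9 113 (0.351%, 0.289 to 0.422%) at 2.87. WT carcass i6 overlapped 272 members at -0.87 and WT carcass i9 247 at -0.83. The WT hindbrains lay lowest, with 2 members and -3.91 for 2A8, 9 and -3.85 for O3, 65 and -1.98 for Q3, and 5 and -2.24 for Z3. Both hearts and both livers were thus above 0, every carcass and hindbrain library was below 0, and both livers lay above both hearts under this expectation. That carcass and hindbrain were low is partly fixed by the rule, since it removed stretches under the null peaks of these tissues. It removed those under null liver i1 peaks as well.

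**Figure D1:**
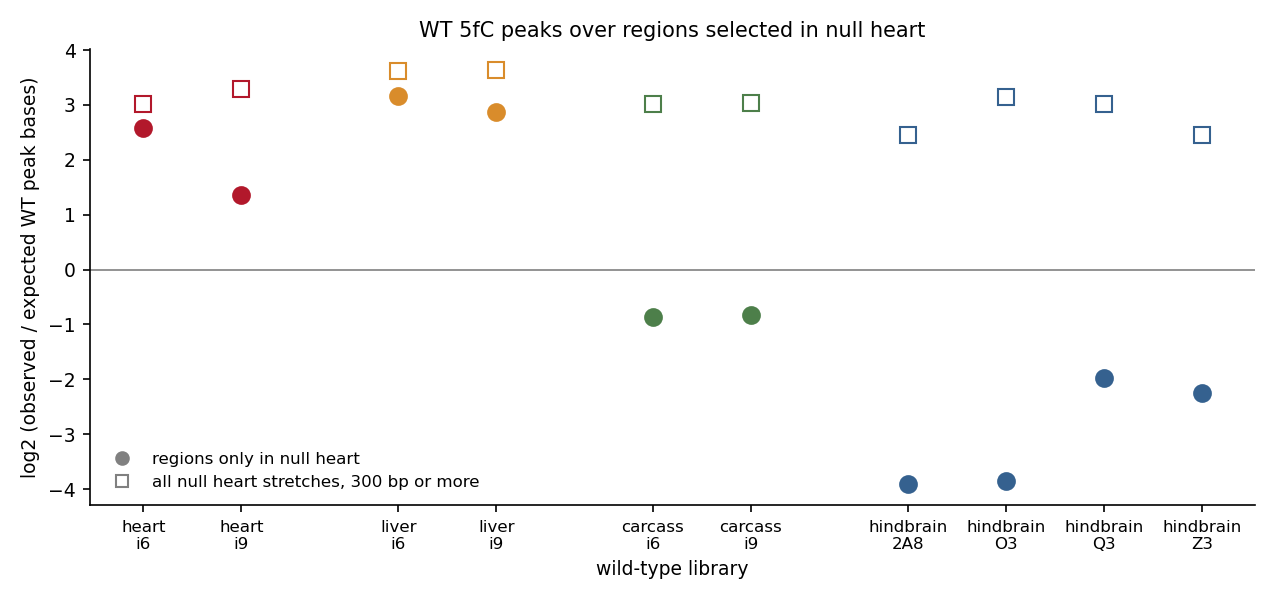
Log2 ratio of observed to expected WT peak bases (y axis) for each WT library (x axis), over regions only in null heart (filled circles) and over all null heart stretches of at least 300 bp (open squares), coloured by tissue; the line marks the expectation. Heart and liver lie above the line for regions only in null heart, at 1.37 to 3.15, and carcass and hindbrain below it, at -3.91 to -0.83, whereas all libraries lie above it for all null heart stretches.

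The mean log2 ratio was 1.97 ± 0.85 (SD, n = 2) in WT heart, 3.01 ± 0.20 (n = 2) in WT liver, -0.85 ± 0.03 (n = 2) in WT carcass and -3.00 ± 1.03 (n = 4) in WT hindbrain. WT heart exceeded the other 8 WT libraries by 2.93 on the log2 scale, a difference that did not pass a two-sided exact permutation test over libraries (p = 0.244, Benjamini-Hochberg adjusted over 3 tests 0.367). Against liver and carcass of the same embryos the difference was 0.89 (exact permutation p = 0.6, adjusted 0.6). Within embryo i6 heart was 0.58 below liver and 3.44 above carcass, as differences of log2 ratios, and within embryo i9 it was 1.5 below liver and 2.19 above carcass. Against hindbrain, with each library's ratio over 2346 hindbrain-only regions subtracted, heart was higher by 5.80 (exact permutation p = 0.0667, adjusted 0.2). This direction is partly fixed by the rules, which bar null hindbrain peaks from heart-only regions and require them in hindbrain-only regions. WT heart itself had the lower ratio over heart-only regions, with a mean difference of -3.98, against -9.78 in WT hindbrain. The 15 assignments of the last 2 designs allow no p below 0.0667. Taken against each tissue alone, a set of comparisons chosen after the values were seen, heart was 1.04 below liver (exact permutation p = 0.333), 2.82 above carcass (p = 0.333, the smallest that these 6 assignments allow for any pair of tissues with 2 libraries each) and 4.97 above hindbrain (p = 0.0667). With an expectation matched on GC content the difference between heart and liver was -0.99, but hearts and livers then overlapped, with 2.03 for WT heart i6 and 0.37 for WT heart i9 against 2.36 for WT liver i6 and 2.02 for WT liver i9.

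The hindbrain-only regions subtracted in that comparison were themselves overlapped by WT libraries of every tissue. WT heart i6 touched 125 of them at a log2 ratio of 5.95 and WT heart i9 123 at 5.96, while the 4 WT hindbrains touched 140 to 413 at 5.26 to 7.94. WT liver i6 touched 53 at 2.65 and WT liver i9 37 at 5.68. Heart-only regions gave the opposite picture in hindbrain, where no WT library touched more than 65 of the 32200.

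Members were also less often marked in WT than null heart stretches at large. Of all 111493 heart null stretches, 1.68% lay under a WT heart i6 peak and 1.74% under a WT heart i9 peak, above the 1.03% and 0.438% of members. For WT liver i6 the background was 5.94% and for WT liver i9 0.69%. WT carcass i6 and i9 touched 10.8% and 9.28% of all heart null stretches, and WT hindbrain 2A8, O3, Q3 and Z3 touched 0.343%, 2.72%, 5.64% and 0.342%. Members and these backgrounds share regions, and the rule sets part of the gap in carcass and hindbrain. Of the heart null stretches that each WT library touched, members made up 17.6% for heart i6, 7.27% for heart i9, 18.4% for liver i6 and 14.7% for liver i9, against 2.25% and 2.39% for the carcasses and 0.297 to 1.31% for the hindbrains.

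Most members, 30188 or 93.8%, lay under no WT peak. A WT heart peak covered part of 437 members (1.36%) and a WT liver peak part of 1258 (3.91%), and 101 had both. Both WT hearts marked 35 members and both WT livers 76. Of the 35, 18 were marked by no other WT library and 4 were marked by both livers too. The 4 lay in an intron of *Sdsl* (chr5:120915701-120916500), a non-coding exon of *Ech1* (chr7:29615901-29617500), a coding exon of *Camsap3* (chr8:3606401-3607100) and 0.188 kb from the start of the model *AC167229.1*. The 18 fell in 6 coding exons, 6 introns, 5 intergenic stretches and 1 untranslated exon. They included a coding exon of *Cdyl*, an intron of *Palld*, whose product organises actin, an intron of *Zfp277*, a coding exon of *Tuba1c*, a tubulin gene, and intergenic stretches 2.43 kb from *Agap1* and 181 kb from *Gli2*. None lay within 10 kb of a gene on the cardiac lists described next. Few members at large did, with 208 of the 32200 at the calcium handling and conduction genes, the most at any list. Their absence among only 18 regions therefore tells little, and it was not tested.

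Genes of the contractile apparatus carried members most densely. Lists of genes for the cell types and functions of the tissues were counted over the gene body extended by 10 kb on each side, and the counts are given as regions per Mb of that span without a test. All 25 sarcomere and Z-disc genes had at least 1 member, 130 in all or 65.0 per Mb, against 20.1 per Mb over all 21418 autosomal protein-coding genes, of which 48.4% had a member. The calcium handling and conduction genes had 43.1 per Mb (19 of 22 genes with a member) and the cardiac transcription factors 39.4 per Mb (21 of 28). Endocardium and endothelium had 26.2 per Mb (15 of 19), cushion and valve mesenchyme 27.8 (7 of 17), natriuretic peptides and trabeculation 16.9 (6 of 10) and epicardium 9.29 (5 of 7). At the low end stood the hindbrain list with 2.30 per Mb (5 of 24) and the skeletal muscle and limb list with 5.55 (3 of 13). Hepatocyte genes, at 21.4 per Mb (9 of 14), and erythroid genes, at 25.2 (4 of the 9 found in the annotation), were close to the value over all genes.

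**Figure D2:**
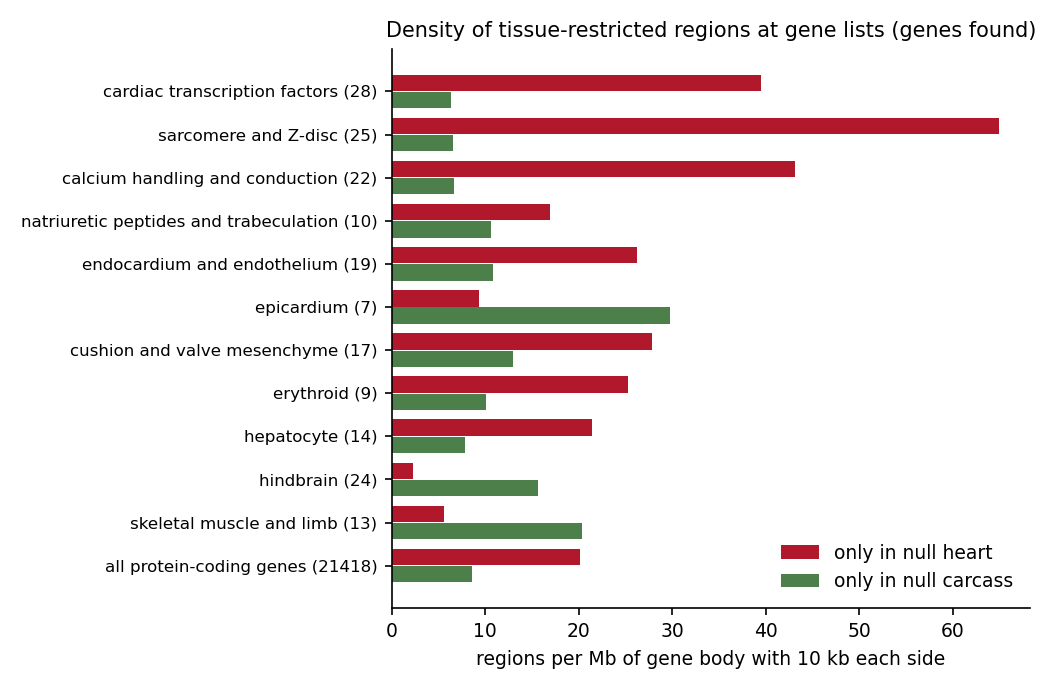
Regions per Mb of gene body with 10 kb on each side (x axis) for each gene list and for all autosomal protein-coding genes (y axis, number of genes found in brackets), for regions only in null heart (red) and only in null carcass (green). Sarcomere genes have 65.0 regions per Mb only in null heart and 6.50 only in null carcass, while hindbrain genes have 2.30 and 15.6.

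Carcass-only regions, selected in the same way in the carcass of the same embryos, were spread differently. They numbered 6.50 per Mb at sarcomere genes, 15.6 at hindbrain genes, 20.3 at skeletal muscle and limb genes and 29.7 at epicardial genes, against 8.52 over all protein-coding genes. Part of the density at sarcomere genes was shared by heart null stretches of every kind, of which these genes had 147 per Mb against 65.9 over all genes. Members formed 44.1% of the heart null stretches at sarcomere genes and 37.2% at calcium handling genes, against 30.5% over all protein-coding genes. The share was also high at hepatocyte genes, with 11 of 27 (40.7%) summed over genes, which hold 10 separate members. It was 34.2% at the natriuretic peptide and trabeculation list. At cardiac transcription factors the share was 27.9%, at endocardial and endothelial genes 24.0% and at hindbrain genes 5 of 25 (20%). Few members at any list lay under WT peaks, and the same held for members at large. Of all members, 1.36% lay under a WT heart peak, 3.91% under a WT liver peak and 1.37% under a WT carcass peak. The counts at the lists were not tested against these shares. Of the 130 at sarcomere genes, 1 was under a WT heart peak, none was under a WT liver peak and 1 was under peaks of both WT carcasses.

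Among the sarcomere and Z-disc genes, *Ttn* had 19 members out of 35 heart null stretches, of which 1 was under a WT heart i6 peak and another under peaks of WT carcass i6 and i9. *Actn2*, for the Z-disc cross-linker alpha-actinin, had 10 of 23. *Ldb3*, another Z-disc gene, had 10 of 19. *Myh7*, the slow myosin heavy chain gene, had 7 of 15, and *Myh6*, the neighbouring gene for the other cardiac myosin heavy chain, had 5 of 10. Since these genes adjoin, 4 members from chr14:55585901 to chr14:55594400 (mm9) were counted for both, and 1 of them was centred at -0.536 kb from the *Myh6* start, upstream of it. *Tnnt2*, for cardiac troponin T, had 3 of 8, with 2 members in its introns 2.60 and 3.80 kb into the gene. *Tnni3*, for cardiac troponin I, had 2 of 5, including a member of 2800 bp centred 1.53 kb from its start. None of the other null tissues had a peak on any of these stretches, by the rule.

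Genes of calcium cycling and electrical conduction followed. *Cacna1c* had 48 members of 132 heart null stretches, *Ryr2*, which encodes the calcium release channel of the sarcoplasmic reticulum, had 38 of 68, and *Slc8a1*, the sodium-calcium exchanger, had 21 of 47. Carcass-only regions numbered 3, 1 and 6 at these genes and hindbrain-only regions 1, 0 and 0. Both kinds are fewer than members over the genome. Over the whole list carcass-only regions numbered 6.63 per Mb, against 8.52 over all protein-coding genes. Hindbrain-only regions numbered 1.04 per Mb, close to the 1.18 over all protein-coding genes. *Pln*, whose product inhibits the calcium pump, had 3 of 7, and *Hcn4*, a pacemaker channel, had 4 of 9. *Kcnj2*, *Kcnj3* and *Gja1* had no member, out of 0, 1 and 3 heart null stretches.

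Among transcription factors, *Gata4* had 11 members of 23 heart null stretches, *Zfpm2*, for a GATA cofactor, had 10 of 47, and *Mef2c* had 9 of 24. *Tbx20* had 7 of 11, *Myocd* 7 of 25 and *Tbx5* 3 of 11, whereas genes such as *Nkx2-5*, *Tbx3*, *Hand1*, *Srf*, *Irx3* and *Nr2f2* had none. These genes had few heart null stretches of any kind, 0, 1, 1, 1, 2 and 0 in that order. At *Gata4* the members were 400 to 2300 bp long and lay 10.8 to 79.2 kb from the start site in the direction of transcription. The longest heart null stretch of the locus, 6.0 kb long and 36.3 to 42.3 kb from the start, was no member because other null tissues had peaks there. Null heart i1 had 35 peaks in this span and null heart i5 had 27, against 18 in null liver i1, 2 in each null carcass and 4 to 5 in the null hindbrains. The rule itself used these null peaks, and *Gata4* is named for its many members, so the counts only describe the locus. They are not set against library totals, which were 251271 for null heart i1 and 100553 for null liver i1. Neither WT heart and neither WT liver had a peak there, while each WT carcass had 1 and WT hindbrain Q3 had 2.

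**Figure D3:**
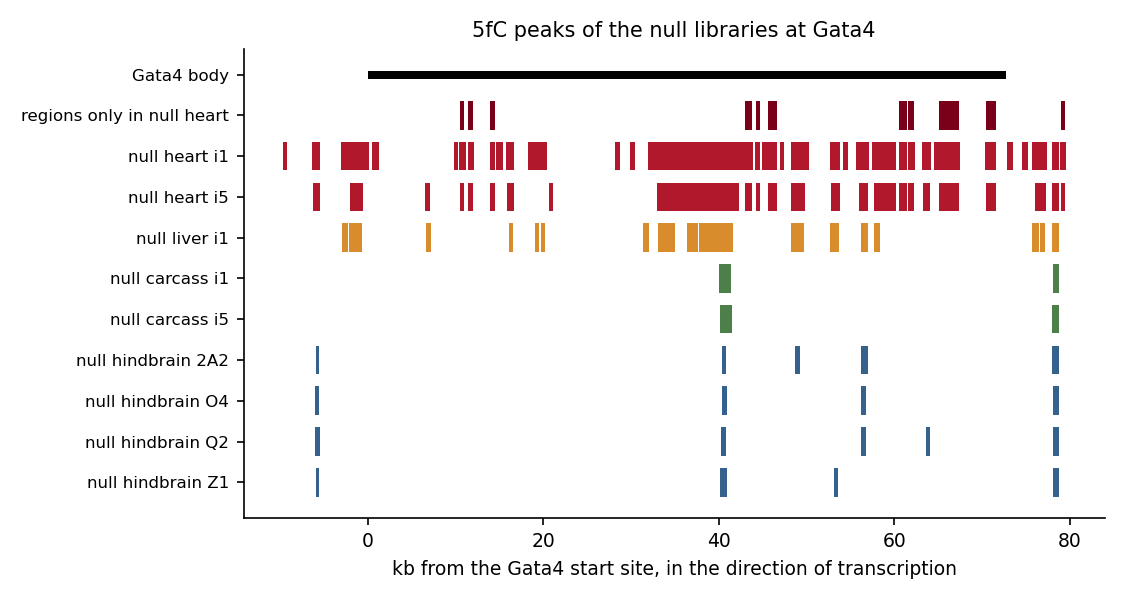
Peaks of each null library, drawn as bars to scale, and the regions only in null heart (second row) at *Gata4*, against the distance in kb from its start site in the direction of transcription (x axis). The 11 regions lie 10.8 to 79.2 kb from the start, around a broad block of peaks near 40 kb that heart shares with liver, carcass and hindbrain.

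In the trabeculation list, *Erbb4* had 10 members of 24, *Tbx20* 7 of 11 and *Bmp10*, a growth factor of trabecular myocardium, 5 of 13, and *Nppa* had 1 of 4 while *Nppb* had none. At the endothelial genes *Erg* had 8 of 28, *Flt1*, a VEGF receptor gene, 7 of 32, and *Nfatc1*, an endocardial factor, 7 of 23. Of the cushion genes the counts, not set against gene length, were highest at *Tgfbr3*, a TGF-beta co-receptor gene, with 11 of 43, *Tgfb2*, for its ligand, with 6 of 23, and *Tgfbr2*, for a receptor, with 4 of 12. *Twist1*, *Sox9*, *Msx1* and *Snai1* had none, out of 0, 1, 0 and 4 heart null stretches. The epicardial genes *Sema3d*, *Tbx18* and *Upk1b* had 1 each. *Ank1*, for erythroid ankyrin, had 8 of 32 and *Slc4a1*, for the red cell anion exchanger, had 3 of 7. *Apoa2*, for an apolipoprotein, had 2, and *Afp*, for alpha-fetoprotein, had 1. *Elavl3* and *Nrcam*, from the hindbrain list, had 1 each, and carcass-only regions numbered 2 and 10 at these genes. *Runx2*, a bone factor, had 4 of 12, and *Alx4* and *Col2a1* had 1 each.

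Over the whole annotation, 7316 of the 21418 protein-coding genes (34.2%) held a member midpoint in the gene body and 1183 held 5 or more. The largest counts fell on very long gene models. *Gm20388*, a model of 4435 kb, held 128, *Fgfr2*, drawn over 3009 kb in this annotation, held 63, and *Arfip1*, over 1391 kb, held 47. These spans may be errors of the annotation, and by nearest start site the same genes had 2, 3 and 3 members. *Cacna1c* held 46, *Esrrg*, for a nuclear receptor active in heart metabolism, 37, *Ryr2* 36 and the non-coding *Gm16724* 33. *Arhgap26* and *Magi1* held 30 each, *Zbtb20* 28, *Atxn1* 27 and *Camta1* 26. Of these 12 genes 11 also led when 10 kb flanks were added, and 1 led when members were given to the nearest start site. Per length, and among genes with at least 5, *Tmbim1* led with 28.8 per 100 kb, followed by *Stard3* (26.4), *Gyg*, for the glycogen primer glycogenin (24.1), *Gm17382* (23.2), *2410066E13Rik* (22.6) and *Fhl2*, for a cardiac LIM protein (22.0). *Osbp* (21.2), *Usp2* (21.0), *Myh7* (20.9), *4921524J17Rik* (20.8), *Wdr1* (20.1) and *Ccm2* (20.1) completed the 12. At *Fhl2* members were 9 of the 12 heart null stretches in the body, and at *Tmbim1* 5 of 6.

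Some members lay close together, which was not compared with the spacing of other stretches. The nearest other member was 11.9 kb away in the median, and 9251 members (28.7%) had one within 5 kb. The densest window of 100 kb, chr13:35870001-35970000 at *Cdyl*, held 18 members of 36 heart null stretches. Windows at *Fhl2* (chr1:43160001-43260000, 17 of 26) and *Ryr2* (chr13:12110001-12210000, 17 of 29) came next, and then *Cacna1c* (chr6:118930001-119030000, 16 of 34) and *Pcgf5* (chr19:36420001-36520000, 16 of 24). Windows at *Mical3*, *Cgnl1*, *Dip2b* and *Igf2bp2* held 15 each and one at *Bmp7* held 14. Of the members in these 10 windows, 1 at *Cdyl* was under a WT heart peak and 1 at *Pcgf5* under a WT liver peak.

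The longest member, of 3400 bp, lay in an intron of *Ift122*, and members of 3100 bp lay in an exon of the non-coding *Gm4651* inside *Mical3* and in an intron of *Xirp1*, which encodes an actin-binding protein of the intercalated disc. Those of 2800 bp lay in *Tnni3*, *Ppil1* and *Bend4* and 54.4 kb from *Neurl1b*. The last was under a WT liver i6 peak and that in *Bend4* under a WT carcass i9 peak. Those of 2700 bp lay in an intron of *BC022687* and upstream of *4921517D21Rik*. A member of 2600 bp in a coding exon of *Kif26b* lay under peaks of WT heart i6 and WT liver i6.

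Members lay in genes more often than the genome does and mostly away from start sites. By midpoint 56.3% were intronic, 34.3% intergenic and 4.93% in coding exons, where these features make up 38.4%, 57.2% and 1.44% of the ungapped autosomes. The shared heart null stretches were alike, with 55.6%, 36.5% and 3.47%, whereas carcass-only regions had 44.7%, 50.7% and 1.87%. A start site was within 1 kb of 1882 members (5.84%), against 6.75% of shared heart null stretches, 3.24% of carcass-only and 4.05% of liver-only regions, and the median distance was 15.3 kb, against 17.8 kb for shared heart null stretches, 34.4 kb for carcass-only and 29.3 kb for liver-only regions. Members had a median GC content of 47.2% and 1.33 CpG per 100 bp, against 47.7% and 1.60 in shared heart null stretches, 43.8% and 1.17 in carcass-only regions and 41.9% and 0.851 over the autosomes. Only 70 members (0.217%) were CpG-rich, meaning 50% GC or more and CpG at over 0.6 of its expected frequency.

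The bases around the centre of members were read for short words bound by known factors, on both strands of the central 300 bp. The GATA word AGATAA is bound by *Gata4*, *Gata5* and *Gata6* products in heart and by *Gata1* and *Gata2* products in blood. It occurred in 28.8% of members, 23.9% of shared heart null stretches, 13.9% of carcass-only and 36.9% of liver-only regions, and in 19.2% of the 159587 windows of the same length sampled along the autosomes. The Nkx2-5 word TCAAGTG occurred in 6.87% of members, 5.43% of shared stretches, 4.29% of carcass-only regions and 4.37% of windows. Over whole regions, of which the shared stretches are longer, the differences between members and shared stretches turned to -2.99 percentage points for GATA and -1.52 for Nkx2-5. The Meis word TGACAG, which turned in the same way, was found in 30.2%, 29.2%, 25.4% and 18.5% of these sets, and the TEAD word ACATTCC in 6.47%, 6.68%, 5.04% and 4.03%. Other words were less frequent in members than in carcass-only regions. The E-box CATCTG, bound by Hand and Twist factors, occurred in 22.8% against 32.5%, the E-box CAGCTG of myogenic and neural factors in 18.5% against 21.1%, and the homeobox word TAATTA in 3.52% against 11.1%, with 21.8%, 11.0% and 10.4% of windows. The Mef2 words TATTTTTA and TATTTATA were found in 4.83% and 2.52% of members, below the 5.75% and 3.99% of windows, which have a lower GC content. A CArG box occurred in 1.62%, T-box AGGTGTG in 6.30%, AP-1 TGANTCA in 11.9%, forkhead TGTTTAC in 3.58%, Sox ACAATGG in 3.61%, KLF CCACACCC in 3.22% and HNF4 CAAAGTCCA in 0.435% of members, against 1.76%, 6.31%, 8.82%, 4.48%, 5.31%, 1.77% and 0.373% of windows.

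**Figure D4:**
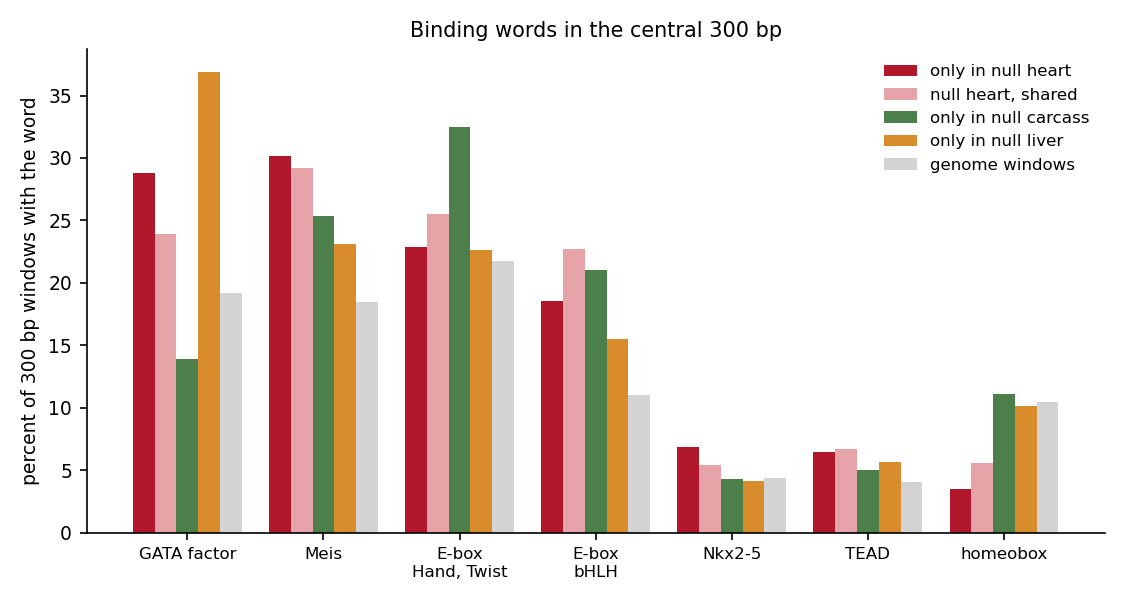
Percent of central 300 bp windows that hold each word on either strand (y axis) for 7 words (x axis), in regions only in null heart, other null heart stretches, regions only in null carcass or null liver, and windows sampled along the autosomes. The GATA word is in 28.8% of regions only in null heart, 13.9% of those only in null carcass and 36.9% of those only in null liver.

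The GATA word was most frequent in those members that a WT liver also marked. It occurred in 610 of the 1221 members under WT liver i6 (49.96%, 95% exact binomial interval 47.1 to 52.8%) and in 62 of 113 under WT liver i9 (54.9%, 45.2 to 64.2%). Under WT heart i6 it occurred in 124 of 331 (37.5%, 32.2 to 42.9%) and under WT heart i9 in 55 of 141 (39.0%, 30.9 to 47.6%). The carcass libraries were lowest, with 66 of 272 (24.3%, 19.3 to 29.8%) for i6 and 50 of 247 (20.2%, 15.4 to 25.8%) for i9, and members under no WT peak had 28.0%. Both libraries of a tissue gave like shares, and the shares of the 3 tissues did not overlap, although the intervals of both livers overlapped that of heart i9, with no test made of the differences. The word was in 10 of 35 members under both WT hearts (28.6%, 14.6 to 46.3%) and in 4 of the 18 under both hearts alone (22.2%, 6.41 to 47.6%), intervals that include both the share under no WT peak and those under each heart, and in 43 of 76 under both WT livers (56.6%) and 36 of 62 under both livers alone (58.1%). By gene list, the share was 31 of 126 separate members (24.6%, 17.4 to 33.1%) at sarcomere genes, 46 of 208 (22.1%, 16.7 to 28.4%) at calcium handling genes, 26 of 99 (26.3%) at cardiac transcription factors, 15 of 46 (32.6%) at endothelial genes, 5 of 10 at hepatocyte genes and 2 of 15 at erythroid genes. The interval at sarcomere genes includes the 28.8% of all members, and that at calcium handling genes ends just below it. The Nkx2-5 word was in 3.97% of members under a WT liver peak and 7.55% of those under a WT heart peak. These intervals cover counting error only.

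**Figure D5:**
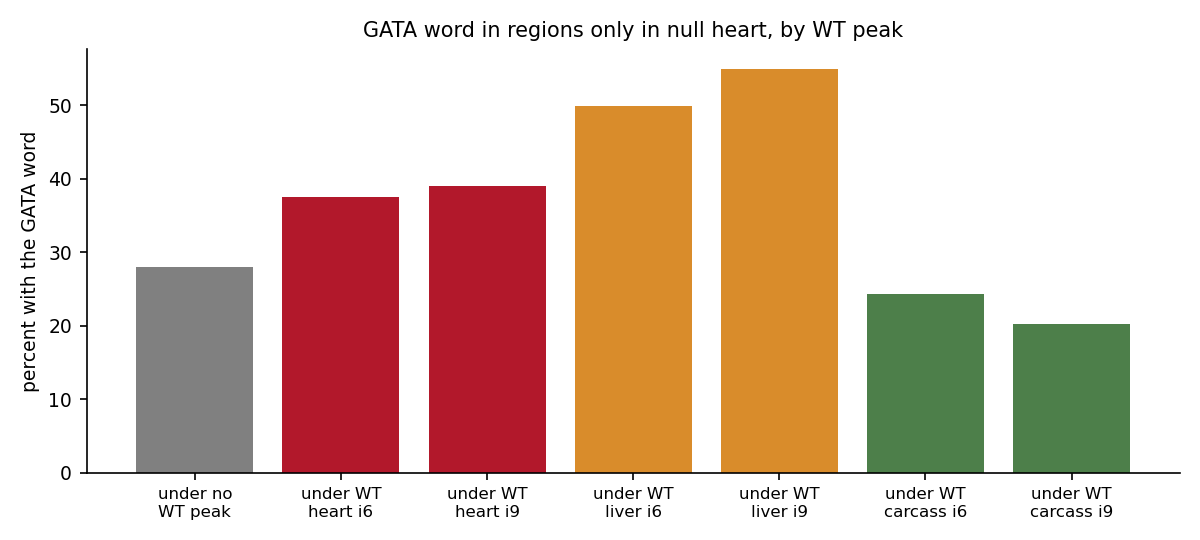
Percent of regions only in null heart whose central 300 bp hold the GATA word (y axis), for those under no WT peak and those under a peak of each WT heart, liver and carcass library (x axis). Shares are 49.96% and 54.9% for the livers, 37.5% and 39.0% for the hearts, 24.3% and 20.2% for the carcasses and 28.0% for regions under no WT peak.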

How the data were processed

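5fC was pulled down from sonicated DNA of 20 dissected tissues with a cleavable biotinylated probe. Per the paper's methods and the submitters' processing notes, the authors trimmed reads with Trim Galore, aligned them to NCBIM37 (mm9) with Bowtie2 and called peaks in each library on its own with MACS in SeqMonk. The deposited values are peak starts and ends in bases on a 100 bp grid, with no counts, heights or scores, and reads were not analysed here, so depth is not given.

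For overlap, WT peak bases inside the regions were divided by those expected from each library's coverage of the ungapped bases of each chromosome, and log2 was taken. This was tested on simulated data and compared by two-sided exact permutation tests over libraries, each a separate dissection, with Python 3.11.15, numpy 2.4.6 and scipy 1.17.1. Gene models came from GENCODE for NCBIM37.

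The regions, gene lists, words and tests were chosen with earlier results of these data known. Genes named are the 12 with the most members in the body, the 12 with the most per 100 kb among those with at least 5, and the 3 leading each list, with further list members given for contrast after their values were seen. Regions named are the 10 longest, the 10 densest windows and those of both WT hearts alone. Not every such gene or region is reported. Alternatives were other ways to cut, remove and filter regions, other expectations, peak filters, and each library left out.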

Additional observations from a re-analysis of the deposited data

Results flagged for a closer look

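WT heart and WT liver lay above the expected overlap with regions only in null heart in every library, and WT carcass and WT hindbrain lay below it in every library. The difference of mean log2 ratios was 2.82 between heart and carcass, 4.97 between heart and hindbrain, 3.86 between liver and carcass and 6.01 between liver and hindbrain. The last 2 differences were not tested, and carcass and hindbrain are low in part through the rule that chose the regions.

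Among the 4 WT hindbrains, Q3 stood apart in the percent of these regions under its peaks, 0.202% and the gap to the next library was 0.889 of the whole range, above the critical value of Dixon's test. Chance gives about 1 such gap in 20 groups. Q3 also had the most peaks of the WT hindbrains, 21063 on the autosomes, and its log2 ratio of -1.98 did not stand apart.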

How the results depend on the processing

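The differences between WT heart and other WT libraries kept their direction under each alternative way to cut the regions, set the expectation or filter peaks, and each library left out. Against all other tissues the difference was 2.32 to 3.53 with 1 library left out, against hindbrain 5.11 to 6.64, and against liver and carcass 0.238 to 1.58, a range in which each of WT heart i6, WT heart i9, and both livers and carcasses moved the value by over 1.5 times. With null heart i1 alone in the rule the difference against liver and carcass was 0.577 (exact permutation p = 0.733). With the replicate block, heart minus liver and carcass of the same embryo, it was 0.89 (exact sign-flip p = 0.5). Further comparators were chosen after seeing the data: against liver alone the difference turned to -1.04, and with liver left out it rose to 4.25 (exact permutation p = 0.0357, unadjusted). With liver left out only carcass and hindbrain remain, and the rule removed stretches under their null peaks. The direction of that difference was therefore partly fixed in advance. The number of regions rose from 32200 to 85974 when null heart i1 alone defined them, and was 25244 to 43171 under the other rules. Over whole regions rather than the central 300 bp, members held every word less often than the longer shared stretches. For the 9 words that were more frequent in members over the central 300 bp, the differences turned to -2.99 percentage points for GATA, -1.26 and -0.43 for the Mef2 words, -1.52 for Nkx2-5, -1.89 for T-box, -0.96 for CArG, -8.52 for Meis, -5.06 for AP-1 and -1.48 for KLF. Per 10 kb of sequence members held more of these 9, as with 9.17 against 7.70 GATA words.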

Other observations

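Null liver i5, which was set aside for poor quality and had 206 autosomal peaks, touched 2 of the 32200 regions, at a log2 ratio of -0.82. Null liver i1 alone stood for liver in the rule, and liver-only regions, 6400 in number, were themselves little marked in WT liver, with 39 under WT liver i6 at a log2 ratio of 0.29 and 6 under WT liver i9 at 1.005.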
